A study of Mus musculus with 8 samples.

Results

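Mutant AECI were compared with mutant AECII, the 2 sorted populations of alveolar epithelial cells from mouse lungs in which Fgfr2b signaling had been inhibited, across all genes. These are 4 arrays of the 8 in the series, 2 of mutant AECI and 2 of mutant AECII, chosen by their labels, and the other 4 arrays hold the same populations from WT lungs. RNA of cells isolated by fluorescence-activated cell sorting from embryonic lungs was amplified, labeled with Cy5 and hybridized to one array per sample, and the submitters describe the 2 arrays of a group as biological replicates. Mutant and WT are the words of the labels. The series title gives the in vivo inhibition of Fgfr2b signaling and the span from E16.5 to E18.5 (days of gestation), but it does not settle whether that span is the period of inhibition or the days of harvest, and the strain, the alleles, the agent of inhibition, the surface markers of the sort and any pooling of embryos were not given in the sources used here.

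AECI are the flat cells across which gas diffuses, and AECII are the cuboidal cells that make and secrete surfactant and act as progenitors of AECI. Both arise from distal epithelial progenitors late in gestation. Fgfr2b is the epithelial splice form of Fgfr2, a tyrosine kinase receptor for Fgf1, Fgf7 and Fgf10 that signals through Ras and ERK. The receptor maintains distal progenitors and favors the AECII fate in the developing lung, while the YAP and TAZ coactivators favor the AECI fate.

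Signals are on the log2 scale, so that a difference of 1 is a 2-fold change, and each difference is mutant AECI minus mutant AECII. Values of a gene are given for mutant AECII replicates 1 and 2 and then for mutant AECI replicates 1 and 2. A gene was called when its adjusted p in limma was under 0.05. Where a group mean reached 15, near the top of the range (15.99), values are given with no difference. The replicate arrays correlated across genes with r = 0.977 in mutant AECII and 0.969 in mutant AECI, against 0.929 to 0.943 between the populations. In such bulk samples, fewer cells of a type and less RNA per cell cannot be told apart. Transcripts of mesenchymal cells were unevenly spread. Col1a1, a fibrillar collagen chain of fibroblasts, had 9.29 and 7.05 in mutant AECII and 6.38 and 10.26 in mutant AECI. Col3a1, another fibrillar chain, had 9.04 and 4.06 in mutant AECII and 5.53 and 9.45 in mutant AECI. Both genes were thus high in mutant AECII replicate 1 and mutant AECI replicate 2 and lower in the other array of each population, so that the groups overlapped.

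Of 24568 genes, 1917 were called (7.8%), 720 of them higher in mutant AECI (2.93%) and 1197 lower (4.87%). A difference of at least 4 on the log2 scale, 16-fold, was found in 31 called genes that were higher in mutant AECI and in 165 that were lower. With each array centered on its median over genes, which adds 0.17 to every difference, the calls split into 928 higher and 988 lower genes. The count fell when any mutant array was left out, to 870 and 1265 without mutant AECI replicate 1 and 2, and to 794 and 626 without mutant AECII replicate 1 and 2.

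**Figure D1:**
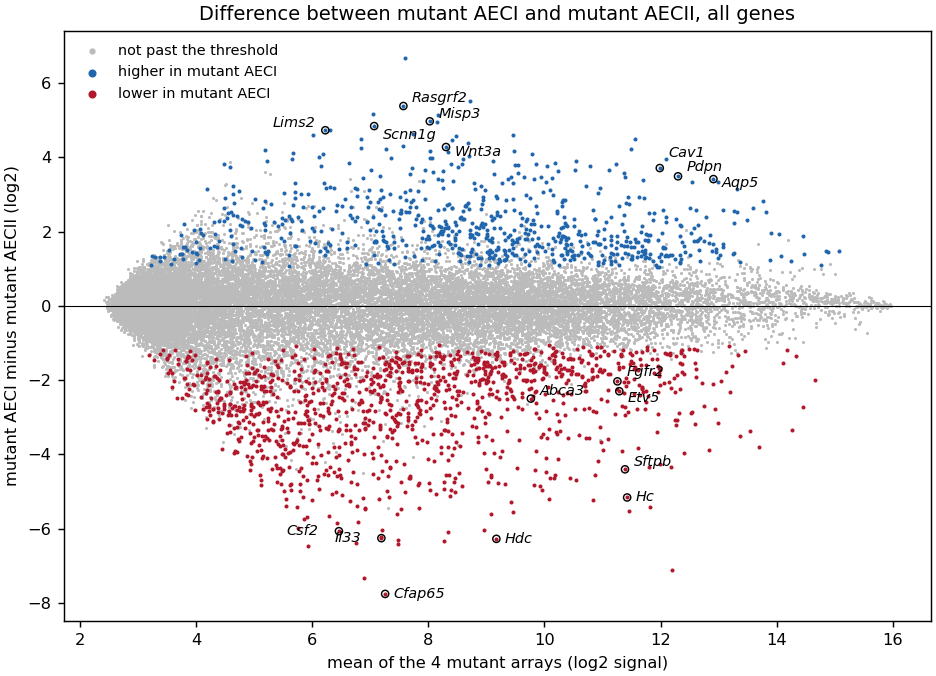
Difference between mutant AECI and mutant AECII (log2, vertical axis) against the mean of the 4 mutant arrays (log2 signal, horizontal axis) for 24568 genes, with called genes in color and some named genes circled. The 1197 genes lower in mutant AECI reach further from 0 than the 720 that are higher, with Cfap65 at -7.76 and Rasgrf2 at 5.38.

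Among the genes higher in mutant AECI with the largest differences, Rasgrf2, which encodes an exchange factor for Ras and Rac, had 4.07 and 5.68 in mutant AECII and 10.05 and 10.47 in mutant AECI, a difference of 5.38 (SE 0.51, n = 2 per group, limma adjusted p = 0.0023). The beta and gamma subunits of the epithelial sodium channel, Scnn1b and Scnn1g, differed by 4.63 and 4.84. Lims2, an adaptor of integrin adhesions, differed by 4.73, the zinc finger gene Zbtb8b by 5.17 and Misp3 by 4.97. The values of Lims2 were 3.60 and 4.12 in mutant AECII and 8.32 and 8.85 in mutant AECI. These genes were named under a rule that required both AECI arrays above both AECII arrays, which 25.7% of all genes had. Prkag3, a regulatory subunit of AMP-activated protein kinase, had the largest difference under this rule, 6.67, but the spots of the gene disagreed, and their mean gave 3.16.

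The genes that were much lower in mutant AECI came from several cell programs. Cfap65, a protein of motile cilia, had 10.70 and 11.57 in mutant AECII and 3.24 and 3.50 in mutant AECI, a difference of -7.76 (SE 0.39, limma adjusted p = 0.00091). Hdc, which makes histamine, had 12.07 and 12.55 in mutant AECII and 6.09 and 5.97 in mutant AECI. Il33, an alarmin cytokine of AECII, had 10.36 and 10.28 in mutant AECII and 3.53 and 4.59 in mutant AECI. Csf2 encodes GM-CSF, the factor on which alveolar macrophages depend, and had 9.49 and 9.497 in mutant AECII and 2.83 and 4.01 in mutant AECI, a difference of -6.07 (SE 0.40, limma adjusted p = 0.0011). Signals near 3, as those of Csf2 and Cfap65 in mutant AECI, lie near the lowest value of the table (2.27), and without detection limits they could not be told from background. Aox3, an aldehyde oxidase, and Tmem178 differed by -6.30 and -6.41.

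Most AECI markers were higher in mutant AECI. Of 42 markers measured, 33 were higher and 1 was lower, with a median difference of 2.44 against 0.02 over all genes. This and the other gene lists were chosen with earlier results of these data known. Their counts therefore describe the lists and are no independent test. Pdpn, a membrane glycoprotein of the AECI surface, had 10.48 and 10.63 in mutant AECII and 13.91 and 14.18 in mutant AECI, a difference of 3.49 (SE 0.36, limma adjusted p = 0.0029). Aqp5, a water channel, had 10.65 and 11.76 in mutant AECII and 14.67 and 14.57 in mutant AECI. Hopx, a homeodomain protein without DNA binding of its own, had 11.75 and 12.24 in mutant AECII and 14.56 and 14.53 in mutant AECI. For each of these 3 genes the AECI arrays lay above the AECII arrays by more than the 2 arrays of either population differed. Spock2, an extracellular proteoglycan, differed by 4.49, the small heat shock protein gene Cryab by 3.33 and Gramd2 by 3.13. Ager, which encodes the receptor for advanced glycation end products of the basal AECI membrane, had 14.41 and 14.75 in mutant AECII and 15.37 and 15.49 in mutant AECI, near the top of the range in both populations, and was not called (limma adjusted p = 0.11). The single marker lower in mutant AECI was Cyp2b10, a cytochrome P450 that was also on the list of airway secretory markers, with 6.64 and 7.03 in mutant AECII and 3.86 and 5.21 in mutant AECI. This call was lost without any one array other than mutant AECI replicate 2 (limma adjusted p = 0.054 to 0.18). The count of AECI markers called fell from 34 to 21 without mutant AECI replicate 1 and to 20 without mutant AECII replicate 1.

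Most AECII markers were lower in mutant AECI. Of 35 measured, 28 were lower and 0 were higher, with a median difference of -2.89, and leaving out any 1 of the 8 arrays kept the count between 24 and 28. Sftpb, the surfactant protein that is essential for breathing at birth, had 13.88 and 13.30 in mutant AECII and 9.07 and 9.29 in mutant AECI, a difference of -4.41 (SE 0.37, limma adjusted p = 0.0018). Sftpa1, a collectin of surfactant, had 13.96 and 13.68 in mutant AECII and 10.49 and 11.01 in mutant AECI, a difference of -3.07 (SE 0.28, limma adjusted p = 0.0021). Both AECI arrays were below both AECII arrays for these genes, as for 26.5% of all genes. Sftpc, the surfactant protein made by AECII, had 15.91 and 15.93 in mutant AECII and 15.16 and 15.23 in mutant AECI, near the top of the range in both populations, so that its difference could not be measured, and it was not called (limma adjusted p = 0.13). The calcium-binding protein gene S100g differed by -3.90, the lysozyme gene Lyz2 by -2.69, the chloride transporter gene Slc26a9 by -4.37 and the stress-induced lysosomal gene Dram1 by -4.17. Chil1, a chitinase-like protein of AECII, had 14.75 and 14.80 in mutant AECII and 10.92 and 10.86 in mutant AECI.

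**Figure D2:**
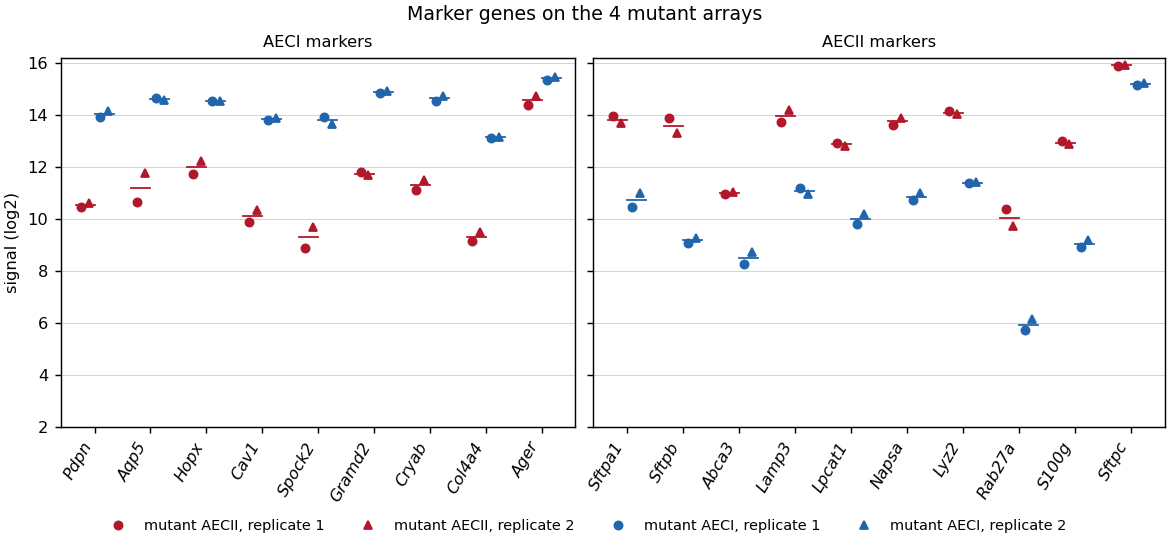
Signals (log2, vertical axis) of 9 AECI markers and 10 AECII markers on each mutant array, with circles for replicate 1, triangles for replicate 2 and lines for the group means. Both AECI arrays (blue) lie above both AECII arrays (red) for the AECI markers shown and below them for the AECII markers shown, with the narrowest gaps for Ager and Sftpc, whose signals are near the top of the range.

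Several genes of surfactant assembly were lower in mutant AECI. Of 16 genes of surfactant proteins and their processing, 5 were lower (Adgrf5, Napsa, Sftpa1, Sftpb and Sftpd) and 0 were higher, with 3 called without mutant AECII replicate 1 or 2. The call of Sftpd was lost without mutant AECI replicate 1, mutant AECII replicate 1 or mutant AECII replicate 2, and that of Adgrf5 without mutant AECII replicate 1 or mutant AECII replicate 2 (limma adjusted p = 0.0503 to 0.068). Abca3, the lipid transporter of lamellar bodies, had 10.97 and 11.06 in mutant AECII and 8.29 and 8.74 in mutant AECI, a difference of -2.50 (SE 0.27, limma adjusted p = 0.0033). Lamp3, a lamellar body membrane protein, differed by -2.90, Napsa, the protease that processes surfactant protein B, by -2.89, and Lpcat1, which makes the saturated phosphatidylcholine of surfactant, by -2.87. Rab27a, a small GTPase of secretory vesicle release, had 10.38 and 9.74 in mutant AECII and 5.72 and 6.14 in mutant AECI. Atp6v1c2, a subunit of the proton pump that acidifies lamellar bodies, had 11.52 and 11.92 in mutant AECII and 6.89 and 6.95 in mutant AECI. Both were more than 4 on the log2 scale lower in mutant AECI. Of the 35 lamellar body, lysosome and trafficking genes, 9 were lower and 2 higher in mutant AECI, with a median difference of -0.30. The shares were 25.7% and 5.71%, against 4.87% and 2.93% of all genes. The count of 11 was 6 without mutant AECII replicate 1 and 7 without replicate 2.

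Some genes of lipid synthesis were also lower in mutant AECI. Of 41 genes of phospholipid and fatty acid synthesis, 15 were lower and 3 were higher in mutant AECI, with a median difference of -0.48. Scd1, the desaturase that makes oleate, had 14.37 and 14.41 in mutant AECII and 9.99 and 10.85 in mutant AECI, a difference of -3.97 (SE 0.37, limma adjusted p = 0.0021). Srebf1, the transcription factor that drives lipid synthesis genes, had 11.12 and 11.26 in mutant AECII and 8.92 and 8.70 in mutant AECI. Its target Fasn, fatty acid synthase, differed by -2.58, the acyl-CoA ligase gene Acsl4 by -3.06, and Gpam, which catalyzes the first step of glycerolipid synthesis, by -2.79. Pcyt1a, the rate-limiting enzyme of phosphatidylcholine synthesis, had 9.72 and 10.10 in mutant AECII and 9.51 and 9.58 in mutant AECI and was not called (difference -0.37, 95% confidence interval -1.03 to 0.30, limma adjusted p = 0.52). Leaving out mutant AECI replicate 1 or 2 gave 10 and 11 called genes of this list in place of 18, and leaving out mutant AECII replicate 1 or 2 gave 9 each.

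Transcription factors of the lung epithelium were mostly lower or not called. Of 46 measured, 11 were lower and 2 higher in mutant AECI. Cebpa, which promotes AECII maturation, had 15.37 and 15.08 in mutant AECII and 11.47 and 12.21 in mutant AECI (limma adjusted p = 0.0042), with mutant AECII near the top of the range. Elf5, an Ets factor of the distal epithelium, had 10.75 and 10.87 in mutant AECII and 6.30 and 5.82 in mutant AECI, a difference of -4.75 (SE 0.35, limma adjusted p = 0.0014), and Creb3l1, a membrane-bound factor of secretory cells, differed by -2.58. Nkx2-1, the lineage factor of the lung epithelium, had 13.83 and 13.71 in mutant AECII and 13.60 and 13.73 in mutant AECI, a difference of -0.11 whose 95% confidence interval was -0.68 to 0.47 (limma adjusted p = 0.86), and its sign turned with median centering (0.07). Sox9, a factor of distal progenitors, had 10.62 and 11.13 in mutant AECII and 8.87 and 9.33 in mutant AECI and was lower in mutant AECI (limma adjusted p = 0.021). The call of Sox9 was lost without mutant AECI replicate 1, mutant AECII replicate 1 or mutant AECII replicate 2 (limma adjusted p = 0.11, 0.059 and 0.13). The list's count of 13 fell to 8 without either mutant AECI array, to 7 without mutant AECII replicate 1 and to 5 without replicate 2.

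Short sequence motifs of some of these factors were searched in promoters, because called genes of a list shared a direction. The motif letters were chosen after the values were seen, and both strands were searched in RefSeq windows from 250 bases before to 50 after each gene start (GRCm38.p6), of which 19156 measured genes had at least one. CAAGTG, the core bound by NKX2-1, was present for 14.7% of measured genes, for 7 of 28 AECII markers and for 8 of 32 AECI markers. TTGCNNAA, a C/EBP motif, was present for 11.8% of measured genes, for 15.1% of those lower and 7.71% of those higher in mutant AECI. A match describes these letters only. The Sftpa1 window (chr14:41131538-41131837, plus strand) is shown for its pair of NKX2-1 matches and that of Lcn2 (chr2:32387690-32387989, minus strand), an iron-sequestering defense protein described below, for its C/EBP match, each in capitals. The Sftpa1 matches lie on the opposite strand.
Sftpa1: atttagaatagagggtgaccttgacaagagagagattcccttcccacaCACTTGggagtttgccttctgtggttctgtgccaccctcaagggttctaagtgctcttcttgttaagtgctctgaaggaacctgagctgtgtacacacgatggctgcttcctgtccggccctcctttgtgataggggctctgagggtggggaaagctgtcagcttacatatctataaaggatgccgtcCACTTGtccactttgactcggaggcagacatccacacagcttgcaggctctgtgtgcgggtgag
Lcn2: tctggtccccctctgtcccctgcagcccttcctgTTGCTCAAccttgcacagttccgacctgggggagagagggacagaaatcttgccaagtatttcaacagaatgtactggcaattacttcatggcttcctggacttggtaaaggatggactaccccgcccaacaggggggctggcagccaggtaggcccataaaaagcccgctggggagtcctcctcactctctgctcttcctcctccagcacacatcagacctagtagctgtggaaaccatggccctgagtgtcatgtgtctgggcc

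Genes of the FGF pathway were called in both directions. Of 29 ligands, receptors and cofactors, 2 were higher (Fgf1 and Fgf18) and 3 lower (Fgf9, Fgfr2 and Sdc4) in mutant AECI. These were 6.9% and 10.3% of the list, against 2.93% and 4.87% of all genes. Fgfr2, which encodes Fgfr2b and also a mesenchymal splice form, had 12.40 and 12.15 in mutant AECII and 10.30 and 10.17 in mutant AECI. Its difference was -2.04 (SE 0.26, limma adjusted p = 0.0056), and which splice form the probe reads was not determined here. Fgfr3 and Fgfr4, other FGF receptors, differed by 1.49 and 0.93 and were not called (limma adjusted p = 0.072 and 0.26). Fgf18, a ligand with roles in alveolar development, had 7.54 and 7.65 in mutant AECII and 11.57 and 11.21 in mutant AECI, a difference of 3.80 (SE 0.28, limma adjusted p = 0.0014). The 2 AECI arrays were thus both higher than the 2 AECII arrays for this ligand and lower for Fgfr2. Of all genes, 25.7% and 26.5% had these patterns. The call of Fgf1 was lost without any one of the mutant arrays, that of Sdc4 without any one of the mutant or WT AECII arrays, and that of Fgf9 without mutant AECII replicate 2 (limma adjusted p = 0.052 to 0.17). The count of 5 was 3 without mutant AECI replicate 1, AECI replicate 2 or AECII replicate 1, and 2 without mutant AECII replicate 2.

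Among 30 genes that respond to FGF and ERK, 6 were lower and 1 was higher in mutant AECI, with a median difference of 0.22. The shares were 20% lower and 3.33% higher, against 4.87% and 2.93% of all genes, so that the higher side was near the background. Etv5, an Ets factor induced by Fgfr2b, had 12.30 and 12.57 in mutant AECII and 10.36 and 9.92 in mutant AECI, a difference of -2.30 (SE 0.27, limma adjusted p = 0.0046). Its relative Etv4 had 8.86 and 8.80 in mutant AECII and 9.47 and 9.27 in mutant AECI and was not called (limma adjusted p = 0.38). Etv1, from the same subfamily, had 5.12 and 5.21 in mutant AECII and 3.76 and 4.14 in mutant AECI and was not called (limma adjusted p = 0.37). Dusp4, a phosphatase of ERK in the nucleus, had 12.54 and 12.45 in mutant AECII and 8.68 and 9.17 in mutant AECI, a difference of -3.57 (SE 0.27, limma adjusted p = 0.0015). Dusp6, its cytoplasmic counterpart, had 11.66 and 11.95 in mutant AECII and 12.47 and 12.82 in mutant AECI, a positive difference of 0.84 that did not pass (95% confidence interval 0.21 to 1.48, limma adjusted p = 0.12). The feedback inhibitors Spry2 and Spry4 differed by -0.61 and -1.07 and were not called (limma adjusted p = 0.28 and 0.20). Ccnd1, a G1 cyclin induced by ERK, had 7.85 and 7.88 in mutant AECII and 5.87 and 6.09 in mutant AECI and was lower in mutant AECI (limma adjusted p = 0.0087). The call of Ccnd1 was lost without mutant AECI replicate 1, mutant AECII replicate 1 or mutant AECII replicate 2 (limma adjusted p = 0.055, 0.055 and 0.065). The count of 7 was 4 without mutant AECI replicate 1, 3 without mutant AECII replicate 1 and 2 without mutant AECII replicate 2.

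Genes of YAP, TAZ and their TEAD partners were higher in mutant AECI or not called. Of 32 measured, 9 were higher and 0 were lower, with a median difference of 0.74. The difference was positive for 24 members and negative for 8, down to -3.125. With a trended and robust prior 12 members were called higher and 3 lower. Wwtr1, which encodes TAZ, had 9.44 and 8.49 in mutant AECII and 11.60 and 11.71 in mutant AECI, a difference of 2.70 (SE 0.35, limma adjusted p = 0.0062). Yap1 had 9.92 and 10.52 in mutant AECII and 10.88 and 10.51 in mutant AECI and was not called (difference 0.47, 95% confidence interval -0.30 to 1.24, limma adjusted p = 0.47). Tead1, a DNA-binding partner of both, differed by 2.09. Of their known targets, Ccn2, a matricellular protein, had 8.98 and 9.77 in mutant AECII and 13.57 and 13.62 in mutant AECI, a difference of 4.22 (SE 0.33, limma adjusted p = 0.0015), while Ajuba, a LIM protein that restrains the Hippo kinases, differed by 2.79 and F3, tissue factor, by 2.15. Ankrd1, another target, had 3.43 and 3.25 in mutant AECII and 2.97 and 2.44 in mutant AECI, low in all 4 arrays, and was not called (limma adjusted p = 0.49).

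**Figure D3:**
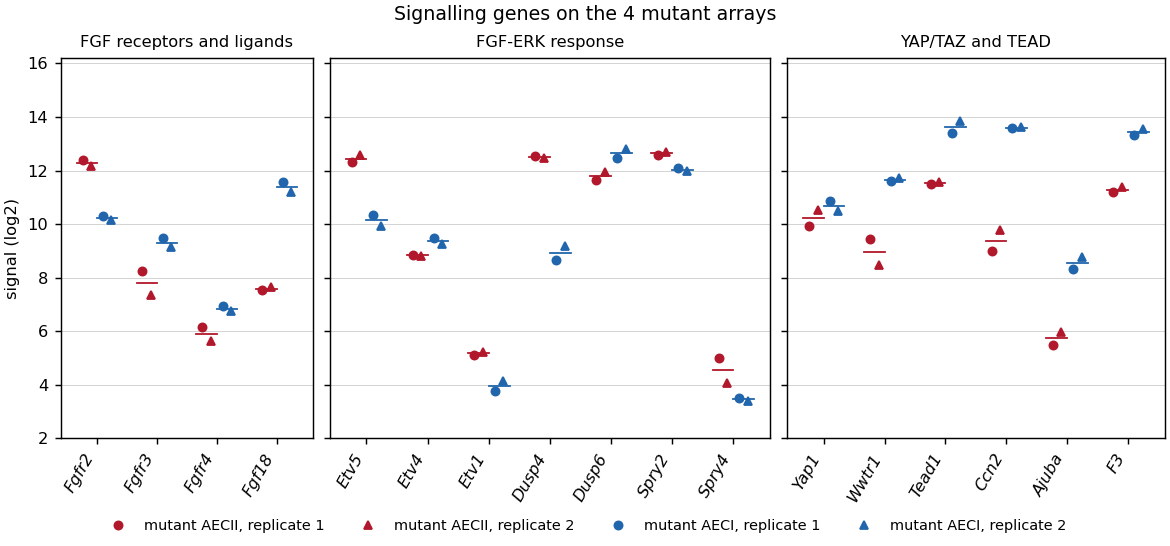
Signals (log2, vertical axis) of FGF receptor, FGF ligand, FGF-ERK response and YAP, TAZ and TEAD genes on each mutant array, with circles for replicate 1, triangles for replicate 2 and lines for the group means. Fgfr2, Etv5 and Dusp4 are lower in mutant AECI and Fgf18, Wwtr1, Tead1, Ccn2, Ajuba and F3 higher, while Etv4, Etv1, Dusp6, Spry2, Spry4 and Yap1 did not pass the test.

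GGAATG, the core bound by TEAD factors, was present in the promoter windows of 12 of 23 genes of this list with a window (52.2%), against 15.6% of measured genes, 16% of all genes higher in mutant AECI and 3 of 32 AECI markers. The list contains known TEAD targets, so that this share describes the list and not the comparison. The windows of Ajuba (chr14:54577612-54577911, minus strand) and Wwtr1 (chr3:57575861-57576160, minus strand) are shown as examples of list members higher in mutant AECI that hold the letters. Matches on either strand are in capitals, and Wwtr1 had 2 windows, of which 1 is shown.
Ajuba: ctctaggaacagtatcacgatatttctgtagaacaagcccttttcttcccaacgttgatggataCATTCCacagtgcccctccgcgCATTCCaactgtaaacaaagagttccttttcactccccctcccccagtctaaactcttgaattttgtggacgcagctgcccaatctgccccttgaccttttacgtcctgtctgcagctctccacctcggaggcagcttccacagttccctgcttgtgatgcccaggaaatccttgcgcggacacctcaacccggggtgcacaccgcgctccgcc
Wwtr1: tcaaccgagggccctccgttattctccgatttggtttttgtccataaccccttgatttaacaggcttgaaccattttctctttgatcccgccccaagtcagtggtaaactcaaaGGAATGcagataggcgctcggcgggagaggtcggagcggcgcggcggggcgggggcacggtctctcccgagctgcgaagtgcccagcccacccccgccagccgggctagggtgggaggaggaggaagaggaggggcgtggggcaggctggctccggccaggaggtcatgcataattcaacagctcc

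Some genes of caveolae and of the flat cell shape were higher in mutant AECI. Caveolae are flask-shaped membrane pits that are abundant in AECI. Of 41 genes measured, 18 were higher and 2 lower, with a median difference of 1.13. Cav1, the main coat protein of caveolae, had 9.91 and 10.36 in mutant AECII and 13.80 and 13.88 in mutant AECI, a difference of 3.71 (SE 0.33, limma adjusted p = 0.0019). Its partner Cav2 had 9.03 and 9.76 in mutant AECII and 12.10 and 12.79 in mutant AECI. The membrane-shaping cavins Cavin2 and Cavin3 differed by 3.97 and 4.60, and Ehd2, an ATPase of the caveolar neck, differed by 2.79. Each of these 5 caveola genes had both AECI arrays above both AECII arrays, as 25.7% of all genes had. Limch1, an activator of nonmuscle myosin, differed by 3.83, Arhgef26, an exchange factor for RhoG, by 2.70, and the membrane-binding annexin gene Anxa3 by 2.58. The count of 20 fell to 9 or 10 without any one of the mutant arrays, with 9 without mutant AECII replicate 2.

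More genes of the basement membrane were higher than lower in mutant AECI. Of 50 genes of basement membrane, integrins and adhesion, 18 were higher and 5 lower in mutant AECI. Col4a4, a chain of the type IV collagen network of the alveolar basement membrane, had 9.14 and 9.503 in mutant AECII and 13.13 and 13.18 in mutant AECI, a difference of 3.83 (SE 0.26, limma adjusted p = 0.0011). Col4a3, its partner chain, differed by 4.96, or by 2.64 with the mean of its spots. Fras1, an extracellular protein at the epithelial base, had 7.61 and 7.89 in mutant AECII and 10.997 and 11.66 in mutant AECI. The integrin subunit gene Itgb6, whose product activates TGF-beta, had 7.12 and 7.21 in mutant AECII and 11.13 and 10.97 in mutant AECI. Both AECI arrays were above both AECII arrays for Col4a4, Fras1 and Itgb6, as for 25.7% of all genes. Sparc, a collagen-binding matrix protein, differed by 2.31. Itga9, the subunit of an integrin for tenascin, had 11.85 and 11.70 in mutant AECII and 9.69 and 9.54 in mutant AECI and was lower in mutant AECI. Lama3 and Lama5, laminin alpha chains of the lung, differed by 1.31 and 1.14 and missed the threshold (limma adjusted p = 0.055 and 0.074). The count of 23 was 10 and 12 without mutant AECI replicate 1 and 2, and 8 and 9 without mutant AECII replicate 1 and 2.

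Transport genes went in both directions. Of 35 ion, water and chloride transport genes, 8 were higher and 4 lower in mutant AECI. The shares were 22.9% and 11.4%, against 2.93% and 4.87% of all genes. The subunits of the epithelial sodium channel, through which the newborn lung absorbs fluid, were all higher. Scnn1a had 10.63 and 10.62 in mutant AECII and 13.25 and 13.03 in mutant AECI. Scnn1b had 4.76 and 6.08 in mutant AECII and 9.93 and 10.17 in mutant AECI. Scnn1g had 4.51 and 4.78 in mutant AECII and 9.36 and 9.61 in mutant AECI. Each of these subunits had both AECI arrays above both AECII arrays, as 25.7% of all genes had. The alpha subunit, without which the channel has little activity, differed by 2.51 (SE 0.24, limma adjusted p = 0.0024). Ano1, a calcium-activated chloride channel, had 9.65 and 9.75 in mutant AECII and 12.11 and 11.99 in mutant AECI. Cftr, the chloride channel mutated in cystic fibrosis, had 12.63 and 13.001 in mutant AECII and 9.72 and 8.58 in mutant AECI. The 2 chloride channels thus went opposite ways, by 2.35 and -3.66 (limma adjusted p = 0.003 and 0.0036). The sodium pump subunit gene Atp1b1 had 12.57 and 12.51 in mutant AECII and 12.35 and 12.03 in mutant AECI and was not called (limma adjusted p = 0.55). Among 26 genes of tight junctions, 4 were higher (Cldn18, F11r, Pard6b and Tjp1) and 1 was lower (Cldn10). The share higher was 15.4% against 2.93% of all genes. The share lower, 3.85% against 4.87%, was near the background. Pard6b, a polarity protein, differed by 2.63. The call of Cldn18 was lost without any one of the 8 arrays, that of Cldn10 without mutant AECII replicate 1 or mutant AECII replicate 2, that of F11r without mutant AECII replicate 1 or mutant AECII replicate 2, and that of Tjp1 without mutant AECII replicate 2 (limma adjusted p = 0.0503 to 0.18). That count of 5 was 2 without mutant AECII replicate 1 and 1 without replicate 2.

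Secreted signals divided between the populations. Of 46 epithelial signals to vessels and mesenchyme, 9 were higher and 4 lower in mutant AECI. The shares were 19.6% and 8.7%, against 2.93% and 4.87% of all genes. Vegfa, the endothelial growth factor, had 13.98 and 14.35 in mutant AECII and 15.84 and 15.36 in mutant AECI (limma adjusted p = 0.028), with mutant AECI near the top of the range. This call was kept with the mean of the spots (limma adjusted p = 0.0022) and lost without any one array other than mutant AECI replicate 2 and the WT AECI arrays (limma adjusted p = 0.059 to 0.15). Sema3a, a guidance cue, had 7.04 and 7.66 in mutant AECII and 10.85 and 10.94 in mutant AECI, a difference of 3.54 (SE 0.31, limma adjusted p = 0.0019). Csf2, given above, was the signal lower by the most. Without mutant AECI replicate 1 and mutant AECII replicates 1 and 2 the list's count of 13 was 5, 3 and 4, and without either WT AECII array it was 8.

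Of 48 WNT pathway genes, 3 were higher, all of them ligands, and 1 was lower, shares of 6.25% and 2.08% against 2.93% and 4.87% of all genes, so that the list as a whole was near the background. Wnt3a, a ligand of the beta-catenin branch, had 5.70 and 6.63 in mutant AECII and 10.41 and 10.48 in mutant AECI, a difference of 4.28 (SE 0.49, limma adjusted p = 0.0042), while Wnt7a and Wnt9a differed by 3.79 and 3.03. The gene lower in mutant AECI was Sp5, a direct target of beta-catenin, with 8.72 and 8.57 in mutant AECII and 4.76 and 4.65 in mutant AECI, a difference of -3.94 (SE 0.25, limma adjusted p = 0.001). Axin2, another target, had 7.56 and 7.23 in mutant AECII and 5.91 and 6.50 in mutant AECI and was not called (limma adjusted p = 0.18). Both WNT targets were lower on both AECI arrays, as were 26.5% of all genes, but only Sp5 passed the test.

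BMP, TGF-beta and Notch genes were split. Of 39 genes of the TGF-beta and BMP pathways, 6 were higher and 5 lower in mutant AECI. The shares were 15.4% and 12.8%, against 2.93% and 4.87% of all genes. The ligand Tgfb2 had 7.63 and 7.59 in mutant AECII and 11.03 and 10.80 in mutant AECI, a difference of 3.31 (SE 0.28, limma adjusted p = 0.0018), whereas the ligand Bmp2 had 10.15 and 10.32 in mutant AECII and 6.10 and 6.78 in mutant AECI, a difference of -3.79 (SE 0.34, limma adjusted p = 0.0019). Bambi, a decoy receptor, differed by -2.23, and Bmp4, a ligand of the distal epithelium, had 10.18 and 10.15 in mutant AECII and 11.08 and 11.14 in mutant AECI and was not called (limma adjusted p = 0.089). Of 24 Notch genes, 1 was higher (Jag2) and 3 were lower (Dlk1, Jag1 and Maml3). These were 4.17% and 12.5% of the list, against 2.93% and 4.87% of all genes. Jag1, a Notch ligand, had 11.75 and 11.92 in mutant AECII and 8.71 and 9.05 in mutant AECI. Dlk1, a noncanonical ligand and imprinted gene, had 15.76 and 15.87 in mutant AECII and 12.92 and 13.25 in mutant AECI, with mutant AECII near the top of the range. The Notch target Hes1 had 9.33 and 9.45 in mutant AECII and 9.52 and 9.58 in mutant AECI and was not called (limma adjusted p = 0.77). The call of Maml3 was lost without any one of the mutant arrays, and that of Jag2 without mutant AECI replicate 1, mutant AECII replicate 1 or mutant AECII replicate 2 (limma adjusted p = 0.095 to 0.18). The TGF-beta and BMP count of 11 was 4 or 5 without any one of the mutant arrays and 7 without either WT AECII array, and the Notch count of 4 was 2 without mutant AECI replicate 1, AECII replicate 1 or AECII replicate 2.

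Some defense genes were lower in mutant AECI. Of 45 genes of complement, cytokines and innate defense, 17 were lower and 3 higher, with a median difference of -0.83. The list shares members with the AECII markers. Hc, complement component C5, had 13.99 and 14.03 in mutant AECII and 8.60 and 9.08 in mutant AECI, a difference of -5.16 (SE 0.32, limma adjusted p = 0.001), and C3, the central complement component, differed by -2.69. Lcn2, whose promoter window is given above, had 13.38 and 13.66 in mutant AECII and 10.28 and 9.10 in mutant AECI, a difference of -3.84 (SE 0.41, limma adjusted p = 0.0034). The neutrophil chemokine gene Cxcl5 differed by -4.79 and Cfi, a complement protease, by -4.26. The exceptions included Il18r1, a receptor for interleukin 18, which had 9.52 and 9.68 in mutant AECII and 11.52 and 11.56 in mutant AECI and was higher in mutant AECI by 1.93. Cd74, the invariant chain of MHC class II, had 9.10 and 9.39 in mutant AECII and 6.01 and 6.01 in mutant AECI, while the class I genes H2-K1 and H2-D1 differed by -0.51 and -0.50 and were not called (limma adjusted p = 0.45 and 0.43). The defense count of 20 was 12 without mutant AECII replicate 1 and 10 without replicate 2.

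The interferon-induced genes that were called were higher in mutant AECI. Of 27 measured, 6 were higher and 0 were lower in mutant AECI, with a median difference of 0.55. Isg15, a ubiquitin-like modifier, had 6.47 and 7.30 in mutant AECII and 9.33 and 9.58 in mutant AECI, a difference of 2.57 (SE 0.36, limma adjusted p = 0.0084). Ifit2, a protein that restrains viral translation, had 4.32 and 4.96 in mutant AECII and 7.78 and 7.85 in mutant AECI. Bst2, which tethers budding virus to the cell, had 7.10 and 6.82 in mutant AECII and 9.53 and 9.59 in mutant AECI. These 3 genes differed by 2.57, 3.17 and 2.60, and Xaf1 by 3.02. For each of these genes both AECI arrays were above both AECII arrays, as for 25.7% of all genes. The core of the interferon response element, TTTC, any 2 bases and TTTC, was present in the windows of 11 of 19 list members with a window (57.9%), against 3.91% of measured genes. As with TEAD, this describes how such a list is made up. The windows of Isg15 (chr4:156200769-156201068, minus strand) and Bst2 (chr8:71537423-71537722, minus strand) are shown for their overlapping matches, in capitals on the opposite strand.
Isg15: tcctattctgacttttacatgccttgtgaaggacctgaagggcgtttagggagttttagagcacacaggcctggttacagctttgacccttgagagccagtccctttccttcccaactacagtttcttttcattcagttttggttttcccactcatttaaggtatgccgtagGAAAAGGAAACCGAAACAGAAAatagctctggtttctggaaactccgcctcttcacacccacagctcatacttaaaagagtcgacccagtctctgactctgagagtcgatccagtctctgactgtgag
Bst2: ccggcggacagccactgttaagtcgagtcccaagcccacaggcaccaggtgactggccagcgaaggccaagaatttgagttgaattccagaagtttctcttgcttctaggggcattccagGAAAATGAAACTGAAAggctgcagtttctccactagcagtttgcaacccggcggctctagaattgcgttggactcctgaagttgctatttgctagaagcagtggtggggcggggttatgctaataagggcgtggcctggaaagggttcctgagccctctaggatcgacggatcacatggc

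Many airway transcripts were lower in mutant AECI. Of 45 ciliated cell markers, 30 were lower and 0 were higher, with a median difference of -2.75. Foxj1, the transcription factor that sets up motile cilia, had 11.11 and 11.60 in mutant AECII and 7.57 and 6.02 in mutant AECI (limma adjusted p = 0.0061). The call of Foxj1 was lost without mutant AECII replicate 2 (limma adjusted p = 0.053). Ccdc153, a coiled-coil protein of motile cilia, had 9.81 and 10.71 in mutant AECII and 4.68 and 4.63 in mutant AECI, a difference of -5.60 (SE 0.44, limma adjusted p = 0.0015), and Rsph4a, a radial spoke protein, differed by -4.06. The median of the ciliated markers was 7.73 and 7.98 in mutant AECII and 4.91 and 4.94 in mutant AECI. Their summed linear signal was 47452 and 55726 in mutant AECII and 32214 and 26654 in mutant AECI. The count of 30 was 18 without mutant AECI replicate 1, 15 without mutant AECII replicate 1 and 8 without mutant AECII replicate 2.

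Of 34 club and secretory airway markers, 17 were lower and 1 was higher in mutant AECI, with a median difference of -2.31. Scgb1a1, the main secreted protein of club cells, had 15.79 and 15.75 in mutant AECII and 7.67 and 9.62 in mutant AECI (limma adjusted p = 0.0018), with mutant AECII near the top of the range. Aldh1a1, a retinaldehyde dehydrogenase, had 11.63 and 11.53 in mutant AECII and 6.74 and 6.89 in mutant AECI, a difference of -4.77 (SE 0.31, limma adjusted p = 0.0011), and Hp, haptoglobin, differed by -4.68. The summed linear signal of the list was 177417 and 189445 in mutant AECII and 15792 and 21121 in mutant AECI. Airway transcripts thus stood with the AECII markers on both mutant AECII arrays, and WT showed the same. The median WT differences were -2.85 for ciliated and -2.19 for club and secretory markers, with 28 and 16 members lower in WT AECI. The part of airway transcripts in the differences of other genes was not tested. The count of 18 was 9 without mutant AECII replicate 1 and 8 without replicate 2.

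GTTGCC, the core bound by RFX factors of ciliated cells, was present in the promoter windows of 22 of 38 ciliated markers with a window (57.9%). It was present for 14.1% of measured genes, and for 18.1% of those lower and 13.8% of those higher in mutant AECI. Of the AECI markers 8 of 32 held it, and of the AECII markers 2 of 28. As with TEAD, the share of the ciliated list describes how such a list is made up and not the comparison. The window of Ccdc153 (chr9:44240427-44240726, plus strand) is shown for this match, in capitals.
Ccdc153: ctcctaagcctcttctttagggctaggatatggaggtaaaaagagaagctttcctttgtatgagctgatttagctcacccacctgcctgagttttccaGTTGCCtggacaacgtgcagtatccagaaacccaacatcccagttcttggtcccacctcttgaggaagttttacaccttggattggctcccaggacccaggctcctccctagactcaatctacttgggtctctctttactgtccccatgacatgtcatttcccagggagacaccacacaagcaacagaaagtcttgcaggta

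Few markers of mesenchymal, endothelial and blood cells were called. The shares higher and lower were 3.03% and 9.09% of mesenchymal markers and 5% and 10% of endothelial markers. They were 0% and 8% of leukocyte and erythroid markers, against 2.93% and 4.87% of all genes. Of 33 mesenchymal markers, 3 were lower (Col6a1, Col6a2 and Des) and 1 was higher (Msln) in mutant AECI, with a median difference of 0.03. Their summed linear signal was 40798 and 33779 in mutant AECII and 14491 and 21429 in mutant AECI. Col6a1, a chain of type VI collagen, had 12.38 and 12.58 in mutant AECII and 7.82 and 7.86 in mutant AECI. Its partner chain Col6a2 had 14.15 and 14.11 in mutant AECII and 9.39 and 10.34 in mutant AECI, and unlike Col1a1 both stood high on both AECII arrays. The call of Des was lost without any one of the mutant arrays, and that of Msln without any one of the mutant or WT AECII arrays. Des also lost its call with the mean of all spots (difference -0.77, limma adjusted p = 0.15). The count of 4 was 2 without any one of the mutant arrays. Of 20 endothelial markers, 1 was higher (Esam) and 2 were lower (Kdr and Prox1), and none was called without mutant AECII replicate 2. The call of Prox1 was lost without any one of the mutant arrays, and that of Kdr without mutant AECII replicate 1 or mutant AECII replicate 2. With the mean of all spots Kdr differed by -1.38, against -3.63 with the chosen spot, and stayed called (limma adjusted p = 0.022). Of 25 leukocyte and erythroid markers, 2 were lower (Ly6c2 and Lyz1), with 1 left without either WT AECII array or any one of the mutant arrays. The call of Lyz1 was lost without any one of the mutant or WT AECII arrays (limma adjusted p = 0.081 to 0.21). Ly6c2, a surface protein of monocytes, had 9.998 and 9.62 in mutant AECII and 6.20 and 6.09 in mutant AECI. The pan-leukocyte gene Ptprc had 6.65 and 6.96 in mutant AECII and 6.81 and 7.95 in mutant AECI and was not called (limma adjusted p = 0.48). The T cell gene Cd3e had 4.85 and 6.03 in mutant AECII and 6.17 and 6.14 in mutant AECI and was not called (limma adjusted p = 0.51). The hemoglobin gene Hba-a1 had 14.94 and 14.91 in mutant AECII and 14.53 and 14.61 in mutant AECI, near the top of the range in both populations, and was not called (limma adjusted p = 0.92). Of 14 basal cell markers 3 were higher (Bcam, Dlk2 and Ngfr) and 0 were lower, with 21.4% higher against 2.93% of all genes. Trp63, Krt5 and Krt14, the fixed marker genes of this list besides Ngfr, were not called. With the mean of all spots Bcam differed by 1.06 and was not called (limma adjusted p = 0.17). The call of Ngfr was lost without mutant AECI replicate 1, mutant AECII replicate 1 or mutant AECII replicate 2 (limma adjusted p = 0.096 to 0.099). Dlk2, a Delta-like protein, had 7.84 and 8.002 in mutant AECII and 11.61 and 11.16 in mutant AECI. Of 19 neuroendocrine markers 1 was lower (Dnajc12), 5.26% against 4.87% of all genes. That call was lost without mutant AECII replicate 1 or 2, and the count was 2 without either WT AECI array.

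**Figure D4:**
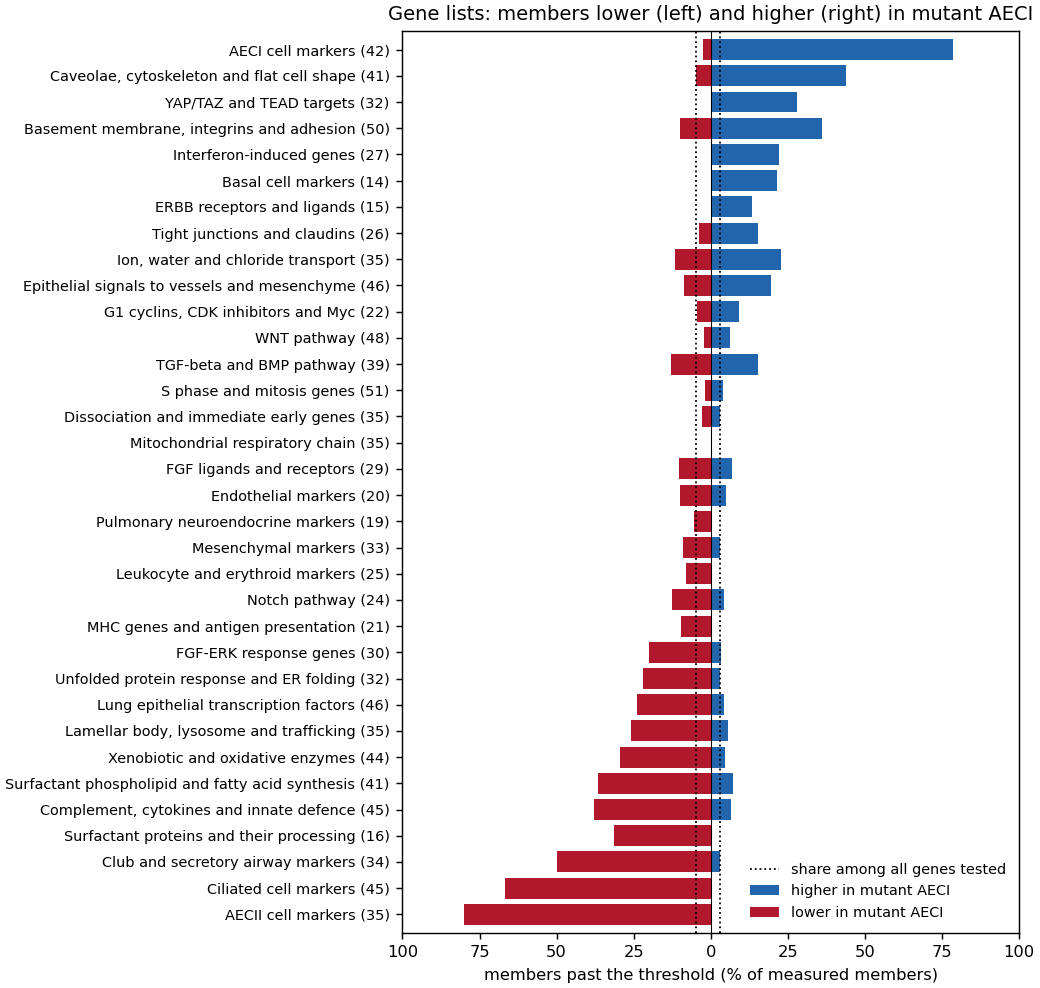
Share of the measured members of each gene list (number of members in parentheses) that were called lower (red, left) or higher (blue, right) in mutant AECI, with dotted lines at the shares among all 24568 genes (4.87% and 2.93%). AECI markers and genes of caveolae, YAP and TAZ stand at the top, and AECII, ciliated and club cell markers at the bottom.

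Of 15 ERBB receptors and ligands, 2 were higher in mutant AECI (Egfr and Hbegf) and 0 were lower, with 0 called without mutant AECI replicate 1, AECI replicate 2 or AECII replicate 1 and 1 without any one of the other arrays. The call of Hbegf was lost without any one of the 8 arrays, and that of Egfr without mutant AECI replicate 1, mutant AECI replicate 2 or mutant AECII replicate 1 (limma adjusted p = 0.060 to 0.20). The ERBB shares were 13.3% higher and 0% lower, against 2.93% and 4.87% of all genes. Of 51 genes of S phase and mitosis, 2 were higher (E2f1 and Rrm1) and 1 was lower (Cdc25a) in mutant AECI. Their shares were 3.92% and 1.96%, against 2.93% and 4.87% of all genes, and the median difference was 0.09. The count of 3 ranged from 0 without mutant AECII replicate 2 to 5 without either WT AECI array. The count was 1 without mutant AECI replicate 1, mutant AECII replicate 1 or either WT AECII array. The call of Cdc25a was lost without any one of the mutant or WT AECII arrays, that of Rrm1 without either WT AECII array, mutant AECI replicate 2, mutant AECII replicate 1 or mutant AECII replicate 2, and that of E2f1 without mutant AECI replicate 1 or mutant AECII replicate 2 (limma adjusted p = 0.053 to 0.19). The proliferation marker Mki67 had 8.38 and 8.12 in mutant AECII and 9.37 and 9.37 in mutant AECI and was not called (limma adjusted p = 0.26). Top2a, a topoisomerase of mitotic chromosomes, had 6.76 and 7.21 in mutant AECII and 3.98 and 6.77 in mutant AECI, low in 1 AECI array, and was not called (limma adjusted p = 0.49). Cdkn2b, an inhibitor of the G1 kinases, had 8.96 and 8.87 in mutant AECII and 11.71 and 11.84 in mutant AECI, a difference of 2.86 (SE 0.34, limma adjusted p = 0.0046).

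Among enzymes of foreign compound and oxidant metabolism, 13 of 44 were lower and 2 higher in mutant AECI, and the count of 15 was 7 without mutant AECII replicate 1 or 2. The shares were 29.5% lower and 4.55% higher, against 4.87% and 2.93% of all genes. Cyp1b1, a cytochrome P450, had 8.39 and 8.56 in mutant AECII and 4.18 and 4.73 in mutant AECI. Gsta2, a glutathione transferase, had 6.76 and 5.91 in mutant AECII and 3.13 and 3.002 in mutant AECI. One exception was Prdx6, a peroxiredoxin with phospholipase activity on surfactant lipid, which had 12.11 and 12.21 in mutant AECII and 14.23 and 14.54 in mutant AECI and was higher in mutant AECI by 2.23 (SE 0.26, limma adjusted p = 0.0045). Of 32 genes of protein folding in the endoplasmic reticulum, 7 were lower and 1 was higher, or 21.9% and 3.12%. Of all genes, 4.87% and 2.93% were. That count of 8 was 2 without mutant AECI replicate 1, AECII replicate 1 or AECII replicate 2 and 5 without AECI replicate 2. The chaperone gene Hspa5 differed by -0.48 and was not called (limma adjusted p = 0.43). Of 35 genes of the respiratory chain none was called by limma, and 8 had an unadjusted p under 0.05. Of these 35 genes, 32 had a negative difference, 26 of them with both AECI arrays below both AECII arrays, against 26.5% of all genes, and the median difference was -0.42. With median centering the median was -0.25, and a trended and robust prior called 6 of them, all lower. Of 35 dissociation and immediate early genes, 1 was higher (Ier3) and 1 was lower (Dusp2). Each was 2.86% of the list, against 2.93% higher and 4.87% lower of all genes, so that the list was near the background. The call of Ier3 was lost without any one of the mutant arrays, and that of Dusp2 without mutant AECI replicate 1, mutant AECI replicate 2 or mutant AECII replicate 2 (limma adjusted p = 0.055 to 0.12).

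The difference between the populations was then compared with that of WT lungs. No gene passed the threshold for a different AECI to AECII difference in mutant and WT (limma, 0 of 24568, 0.0%, smallest adjusted p = 0.999), and 1158 genes (4.71%) had an unadjusted p under 0.05. Of the 1917 called genes, 1878 had a WT difference of the same sign and 39 of the opposite sign. Arrays of the 2 genotypes also differed in sex-linked transcripts: Xist, expressed from the inactive X, was between 3.50 and 5.14 on the mutant arrays and between 12.44 and 13.17 on the WT arrays, and the Y-linked gene Uty between 6.71 and 7.47 and between 2.72 and 3.24. Genotype and this sex-linked difference therefore cannot be told apart between mutant and WT. Between the mutant populations none of the 5 sex-linked genes was called by limma, and 0 had an unadjusted p under 0.05.

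Across the AECII markers, 31 of 35 had a more negative difference in mutant than in WT, against 12454 of 24568 genes, and the median change was -0.66 against -0.01. At an unadjusted p under 0.05 there were 13 markers (37.1%, against 4.71% of all genes), of which none passed after adjustment. That number was 4 without mutant AECII replicate 1 or WT AECII replicate 2, 5 without WT AECI replicate 1 or WT AECII replicate 1, 6 without mutant AECI replicate 1 and 7 without mutant AECII replicate 2. Without WT AECI replicate 1, which stood apart in other lists, 30 of 35 were more negative. Atp6v1c2 differed by -4.80 in mutant and -3.12 in WT (unadjusted p = 0.0038 and adjusted p = 0.999 in limma), and Sftpb by -4.41 and -3.13 (unadjusted p = 0.047 and adjusted p = 0.999). The median signal of the AECII markers was 10.30 and 10.19 in mutant AECI and 10.70 and 10.70 in WT AECI, while mutant AECII had 13.29 and 12.91 and WT AECII had 13.52 and 13.08. The ranges overlapped for AECII and not for AECI.

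Across the AECI markers, 34 of 42 had a smaller or more negative difference in mutant than in WT, with a median change of -0.42. The median change was -0.27 without mutant AECII replicate 2 and -0.66 without mutant AECII replicate 1. The median signal of these markers in AECII was 10.70 and 11.36 in mutant and 10.25 and 10.21 in WT, so that both mutant AECII arrays were above both WT AECII arrays. In AECI it was 13.25 and 13.18 in mutant and 13.000 and 13.22 in WT. The number at an unadjusted p under 0.05 was 5 of 42, and it was 0 without mutant AECII replicate 2, 2 without mutant AECI replicate 2 or WT AECII replicate 2, 3 without mutant AECI replicate 1 or WT AECI replicate 1 and 8 without mutant AECII replicate 1 or WT AECII replicate 1. With quantile normalization it was 11, and with a trended and robust prior 15. Sema3a, for example, differed by 3.54 in mutant and 4.71 in WT (unadjusted p = 0.034 and adjusted p = 0.999 in limma).

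**Figure D5:**
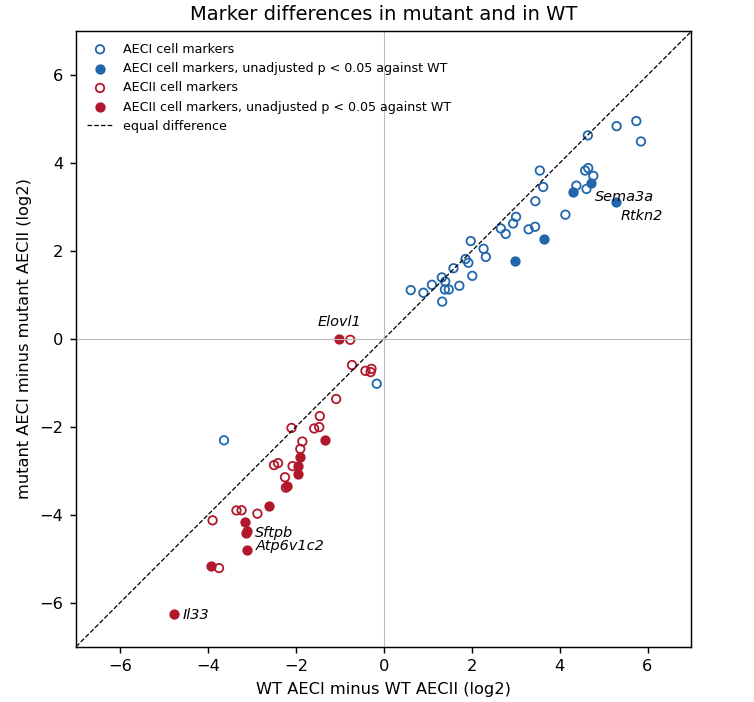
Mutant AECI minus mutant AECII (vertical axis, log2) against WT AECI minus WT AECII (horizontal axis, log2) for 42 AECI markers (blue) and 35 AECII markers (red), with filled points at an unadjusted p under 0.05 for the change between the genotypes. Most points lie below the dashed line of equal differences, 34 of the AECI and 31 of the AECII markers, and none passed after adjustment.

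The single genes with the smallest p for a change between the genotypes included Mthfd2, an enzyme of mitochondrial folate metabolism. It had 6.70 and 7.17 in mutant AECII and 3.56 and 3.30 in mutant AECI, and 7.15 and 6.84 in WT AECII and 8.36 and 7.44 in WT AECI, so that mutant AECI stood apart from the other groups. Its differences were -3.51 in mutant and 0.91 in WT (unadjusted p = 8.18e-05 and adjusted p = 0.999 in limma). Serpinf1, an inhibitor of angiogenesis, had 13.998 and 14.44 in mutant AECII and 8.90 and 8.47 in mutant AECI, and 14.46 and 14.40 in WT AECII and 11.42 and 11.07 in WT AECI. Its differences of -5.53 and -3.19 also came with the lowest signals in mutant AECI (unadjusted p = 0.00094 and adjusted p = 0.999 in limma). Utp20, a factor of ribosome assembly, differed by -4.38 and -1.78, with an unadjusted p of 0.0014 and an adjusted p of 0.999 in limma. In the positive direction, the interferon-induced gene Rsad2 differed by 1.67 in mutant and -2.05 in WT (unadjusted p = 0.00053 and adjusted p = 0.999 in limma), and it was not called between the mutant populations (adjusted p = 0.069 in limma). Csf2 and Hdc, among the most lowered genes in mutant AECI, differed by -3.76 and -4.20 in WT, with unadjusted p of 0.0048 and 0.0025 and an adjusted p of 0.999 for both in limma.

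Genes of S phase and mitosis had a more negative difference in mutant than in WT for 41 of 51, with a median change of -0.63. This rested on WT AECI replicate 1, in which their median signal was 8.55 against 6.72 in WT AECI replicate 2 and 6.40 and 6.76 in mutant AECI. Without that array 25 of 51 were more negative and the median change was 0.01. The same array had a median of 11.48 for the basal cell markers, against 8.15 in its replicate.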

How the data were processed

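The deposited table held one log2 expression value per spot and array, and the authors' processing notes name limma, with no version. How background was corrected, arrays were normalized and detection was judged were not given in the sources used here. All 8 arrays had the same median over spots (5.01), so the deposited values appear to be normalized between arrays. Of 62976 spots, 43941 carried a gene symbol, 81 spots lacked a value on at least 1 array and 57 of these with a symbol were left out. Each of 24568 genes was represented by its spot of highest mean value on the 8 arrays, and 10952 genes had several spots. Symbols were updated through RefSeq accessions for 1424 spots.

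The 4 group means were fitted to all 8 arrays with limma 3.58.1 in R 4.3.3, with 4 residual degrees of freedom, and the contrasts were mutant AECI minus mutant AECII and the same difference in mutant minus that in WT. P-values were two-sided and adjusted over all genes after Benjamini and Hochberg. A p-value measures only the spread between these arrays, 2 per group, and this number limits the precision. The script was tested on simulated data. Named genes were those with the largest differences in each direction, up to 10 each, with groups that did not overlap and group means under 15, fixed marker genes of each list, and up to 5 further list members with the smallest p, and for the WT comparison the 5 with the smallest p in each direction. The text names a part of these. It also names all called members of some lists with 5 or fewer calls and Il18r1, Prdx6, Cyp2b10 and other members chosen after their values were seen. The members and lists were chosen with earlier results of these data known. Alternatives were array weights, the mean of all spots, median centering, quantile normalization, the mutant arrays alone, a trended and robust prior, filters on low genes, other thresholds, a replicate block and leaving out each array.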

Additional observations from a re-analysis of the deposited data

How the results depend on the processing

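The number of genes called between mutant AECI and mutant AECII was 2046 with array weights, 2080 with the mean of all spots, 1916 with median centering, 1829 with quantile normalization, 1287 with the 4 mutant arrays alone and 2836 at an adjusted p under 0.1. It moved by over 1.5 times with a trended and robust prior, to 2904, and on leaving out 1 array it ranged from 626 to 1932. The called genes higher in mutant AECI made up 37.6% of calls, 43.1% with quantile normalization and 48.4% with median centering. For the difference from WT the count was 0 under every alternative run except without WT AECII replicate 1, where it was 1, so that the range on leaving out 1 array was 0 to 1. Of 136 called genes named in the text, 104 kept their call and direction under every alternative that could give a value, 32 lost the call in at least 1 and 0 reversed. Of 32 uncalled genes followed in the same way, 8 were called in at least 1 alternative. Among these 32 genes, the sign turned for Nkx2-1 with median centering (0.066) and for Xist with median centering (0.14) and quantile normalization (0.068). On leaving out 1 array, differences ranged from -0.85 to 0.79 for Xist, from -1.80 to 2.09 for Col1a1 and from -1.55 to 3.42 for Col3a1, and the reversals of the collagen genes came without mutant AECI replicate 2 (-1.80 and -1.03) or mutant AECII replicate 2 (-0.97 and -1.55). The cause of these changes was not tested. Without detection limits, differences of genes with signals near the lowest value of the table are the least certain.

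The labels number the replicates 1 and 2 in each group. Deviations of same-numbered arrays from their group means correlated between -0.07 and 0.03 across genes, so the numbers were not taken to pair the arrays. With the replicate number as a block, 1495 genes were called between the mutant populations, 535 higher and 960 lower in mutant AECI, and 0 for the difference from WT.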
